A study of Mus musculus with 4 samples.

Results

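The genes that mark intestinal stem cells or respond to Wnt did not move as one in the small intestine of CFLARs Tg mice. Lgr5 and Olfm4, which mark stem cells at the crypt base, fell, while Axin2 and Cd44 rose. Wnt signalling induces Axin2 and Cd44 in crypts, and leukocytes also carry Cd44. Outside this set, of 10 other Wnt targets measured 7 lay higher and 3 lower. The other genes measured in this set did not pass the test. They included the Wnt targets Rnf43 and Znrf3, as well as Prom1, which lay higher, and Ascl2, which lay lower. The set holds 10 genes: Lgr5, Olfm4, Ascl2, Smoc2, Axin2, Cd44, Prom1, Ephb2, Rnf43 and Znrf3. They were taken by symbol from 19938 genes that had an array probe set naming that gene alone, and the brightest probe set over the 4 arrays stood for each gene. Of the 10 genes, 9 had such a probe set, exactly 1 each, and Ephb2 was not analysed here. All 9 passed the filter on low values and entered the test.

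Expression was measured in total RNA of the small intestine of C57BL/6 mice on 4 Affymetrix arrays. The 2 wild-type arrays are titled XX (replicate 1) and XY (replicate 2), and the 2 arrays from mice with the CFLARs transgene (CFLARs Tg) are titled XCFX (replicate 1) and XCFY (replicate 2). Cflar encodes cFLIP, an inhibitor of caspase-8, and CFLARs is its short isoform. Arrays XX and XCFX form the XX type below, and arrays XY and XCFY form the XY type; Xist read 12.92 and 12.91 on the first pair and 6.78 and 6.62 on the second. The sources used here do not give the promoter of the transgene, the age of the mice, the stretch of intestine or the number of animals behind an array, and p-values measure only the spread between these arrays, which may be technical in part. Values are the authors' log2 expression values; a step of 1 is a doubling of signal, and levels of different genes cannot be set against each other because each probe set has its own brightness.

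Stem cells at the base of intestinal crypts divide under Wnt ligands, which stabilise beta-catenin and let it act with TCF/LEF factors on target genes. R-spondins bind Lgr4 and Lgr5 and keep the ubiquitin ligases Rnf43 and Znrf3 from removing Wnt receptors, so both ligases, like Axin2, are targets that dampen the pathway which induces them. Ascl2 is a transcription factor of the stem cell state, Olfm4 and Smoc2 encode secreted proteins of crypt base cells, and Cd44, Prom1 and Ephb2 encode proteins of the cell surface.

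The DNA just before the transcription start is shown for the members that passed the test and had an entry in the RefSeq promoter table (build GRCm38.p6), because these 3 genes moved in different directions. The table held 9 windows for 7 members, matched by symbol; Lgr5, Smoc2 and Znrf3 are not shown. Each line gives the 250 bases before the start on the strand of the gene, 5′ to 3′, from chr14:80000052-80000301 (plus strand) for Olfm4, chr11:108920099-108920348 (plus strand) for Axin2 and chr2:102901666-102901915 (minus strand) for Cd44. Capitals mark letters that match a searched motif.
Olfm4: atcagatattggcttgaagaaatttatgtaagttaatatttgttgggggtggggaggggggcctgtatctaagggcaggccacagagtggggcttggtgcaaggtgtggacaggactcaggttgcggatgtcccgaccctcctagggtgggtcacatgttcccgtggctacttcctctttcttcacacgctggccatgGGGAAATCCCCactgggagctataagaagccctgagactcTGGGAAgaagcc
Axin2: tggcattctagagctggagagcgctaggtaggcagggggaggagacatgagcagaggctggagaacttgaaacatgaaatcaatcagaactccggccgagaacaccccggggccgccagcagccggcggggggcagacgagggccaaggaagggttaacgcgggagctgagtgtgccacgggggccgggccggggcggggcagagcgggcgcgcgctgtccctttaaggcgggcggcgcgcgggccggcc
Cd44: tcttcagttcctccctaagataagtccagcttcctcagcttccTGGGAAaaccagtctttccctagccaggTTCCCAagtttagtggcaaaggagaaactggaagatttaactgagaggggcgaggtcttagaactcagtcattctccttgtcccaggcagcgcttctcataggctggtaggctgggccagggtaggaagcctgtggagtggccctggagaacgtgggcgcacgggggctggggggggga

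Both strands of these windows were searched for 5 motifs, chosen with earlier results of these data known. For TCF/LEF factors 4 words were used, namely AACAAAG, then ATCAAAG, then TACAAAG and lastly TTCAAAG, and 0 of 9 member windows held one, against 14.8% of all 32851 windows of the same length. The core letters TGGGAA of RBPJ, the factor through which Notch acts, lay in the Olfm4 window once, with the first base 12 bases before the start, and in the Cd44 window at 2 places; 21.6% of all windows held them. The NF-kB consensus matched the Olfm4 window on both strands at 1 overlapping place, from 52 to 42 bases before the start, and it matched 3.9% of all windows. The AP-1 letters TGANTCA, which read alike on both strands, and the TATA box letters TATAAA were not in the 3 windows shown, and 6.7% and 12.4% of all windows held them. The windows also differed in base composition: GC made up 69.2% of the Axin2 window, 56.4% of the Cd44 window and 54.0% of the Olfm4 window, with a median of 52.4% over all windows.

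In the comparison of CFLARs Tg with wild-type, which asks what the transgene changes in intestinal RNA, 2 of the 9 members rose and 2 fell (limma, adjusted p under 0.05). At an unadjusted p under 0.05 there were 6 members, against 39.1% of all genes, and when differences had to exceed 0.5 (limma's treat, adjusted p) 0 members passed, against 0.451% of all genes, with 1 member and 4.36% of all genes at an unadjusted p under 0.05. Of all 13956 genes tested, 19.3% passed in either direction, 8.44% with a rise and 10.9% with a fall. The median difference of the 9 members was -0.10 on the log2 scale, against -0.01 over all genes tested, and single members ranged from -0.44 to 0.85. Both CFLARs Tg arrays lay above both wild-type arrays in 3 members (32.0% of all genes tested) and below both in 4 members (37.6% of all genes tested). With 2 arrays against 2, an exact two-sided permutation test of a single gene cannot go below p = 0.333, so the calls rest on limma's spread shared across genes.

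**Figure D1:**
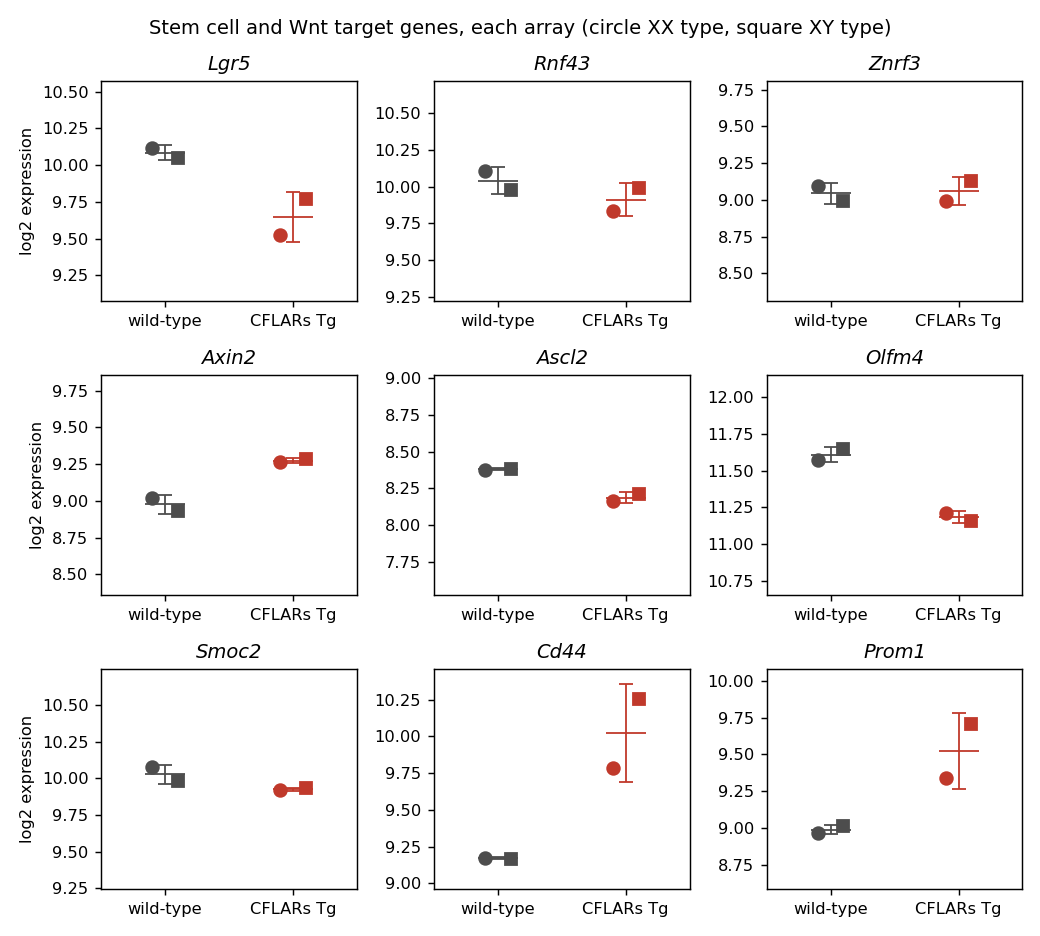
Log2 expression of the 9 measured stem cell and Wnt target genes on each of the 4 arrays, with group means (horizontal bars) and SD (whiskers, n = 2); every panel spans the same log2 range. Lgr5, Olfm4, Ascl2 and Smoc2 are lower and Axin2, Cd44 and Prom1 higher on both CFLARs Tg arrays, while the groups overlap for Rnf43 and Znrf3.

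Lgr5, the R-spondin receptor that defines cycling stem cells of the crypt base, read 10.12 and 10.05 on the wild-type XX and XY arrays and 9.53 and 9.77 on the XCFX and XCFY arrays. Both CFLARs Tg readings lay below both wild-type readings, and the XCFX array was the lowest. Lgr5 fell by 0.44 on the log2 scale (SE 0.10, limma adjusted p = 0.0462), a 1.35-fold difference. In whole tissue, fewer stem cells and less Lgr5 RNA per cell cannot be told apart, which holds for each gene described here. The call was lost without a filter on low values (adjusted p = 0.0537) and without wild-type replicate 1 or 2 (adjusted p = 0.272 and 0.204), with differences of -0.40 and -0.47.

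The ligases that act against Lgr5 signalling were measured as well. Rnf43 read 10.10 and 9.97 in wild-type and 9.83 and 9.99 in CFLARs Tg, so that the XCFY reading lay between the wild-type readings. The difference was -0.13 (SE 0.09, limma adjusted p = 0.333), with a 95% interval from -0.35 to 0.10. It was -0.06 without wild-type replicate 1, -0.19 without wild-type replicate 2, -0.05 without CFLARs Tg replicate 1 and -0.20 without CFLARs Tg replicate 2, none of which passed (adjusted p from 0.0874 to 0.853). Its homologue Znrf3 read 9.10 and 8.99 in wild-type and 8.99 and 9.13 in CFLARs Tg, and the groups overlapped. For Znrf3 the difference was 0.02 (SE 0.08, limma adjusted p = 0.906; 95% interval -0.19 to 0.22), and its sign turned without wild-type replicate 2 (-0.04) or without CFLARs Tg replicate 2 (-0.05).

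Axin2, the scaffold of the complex that degrades beta-catenin and a direct Wnt target, read 9.02 and 8.93 in wild-type and 9.26 and 9.28 in CFLARs Tg. The CFLARs Tg arrays lay close together and above both wild-type arrays. Axin2 rose by 0.30 (SE 0.06, limma adjusted p = 0.0390), a 1.23-fold difference. In a fit that blocks on sex type the adjusted p was 0.0506, and without wild-type replicate 1 or 2 it was 0.236 and 0.284, with differences of 0.34 and 0.25. The promoter printed above for Axin2 held 0 matches to the 5 motifs.

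Ascl2, the transcription factor, read 8.38 on both wild-type arrays and 8.16 and 8.21 in CFLARs Tg. Both CFLARs Tg readings were lower, by a difference of -0.19 that did not pass (SE 0.06, limma adjusted p = 0.0745; 95% interval -0.34 to -0.05, not adjusted for the number of genes). It passed without CFLARs Tg replicate 2 (difference -0.22, adjusted p = 0.0326).

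Olfm4, which encodes a glycoprotein secreted by crypt base cells and is known as a Notch target, read 11.57 and 11.65 in wild-type and 11.21 and 11.16 in CFLARs Tg. The fall was nearly the same on both CFLARs Tg arrays, which differed from each other by 0.05. Olfm4 fell by 0.43 (SE 0.06, limma adjusted p = 0.0235), a 1.34-fold difference and the lowest adjusted p among the members. Without wild-type replicate 1 or 2 the adjusted p was 0.192 and 0.1855, with differences of -0.46 and -0.39. Smoc2, which encodes a secreted matrix-associated protein, read 10.07 and 9.98 in wild-type and 9.92 and 9.93 in CFLARs Tg. Both CFLARs Tg readings lay below both wild-type readings by a small margin, and the difference of -0.10 did not pass (SE 0.06, limma adjusted p = 0.280; 95% interval -0.27 to 0.06). The Smoc2 difference was -0.06 without wild-type replicate 1.

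Cd44, the hyaluronan receptor, differed most of the members. It read 9.17 on both wild-type arrays, 9.79 on the XCFX array and 10.26 on the XCFY array. Cd44 rose by 0.85 (SE 0.16, limma adjusted p = 0.0343), a 1.81-fold difference. The CFLARs Tg arrays differed from each other by 0.47 and the wild-type arrays by 0.01. Without wild-type replicate 1 or 2 the adjusted p was 0.2025 and 0.172, with differences of 0.86 and 0.85, and without CFLARs Tg replicate 1 or 2 the differences were 1.09 and 0.62. Leukocytes also carry Cd44, and their markers lay higher in CFLARs Tg: 8 of 9 markers differed upwards, 0 of the 8 fitted passed (5 at an unadjusted limma p under 0.05; 3 passed with sex type blocked, Ptprc, Cd52 and Itgb2, 1 after median centring, Cd52, and 6 and 5 without CFLARs Tg replicate 1 or 2), and their summed linear signal was 7211 to 7423 in wild-type and 8656 to 10809 in CFLARs Tg. Neutrophil markers rose in 5 of 5, with a summed signal of 618 to 674 in wild-type and 2061 to 4796 in CFLARs Tg; without wild-type replicate 1 or 2, 0 of the 5 passed (5 at an unadjusted limma p under 0.05 in each case). The largest differences were 0.87 for Cd52 and 0.82 for Itgb2 among leukocyte markers and 2.71 for S100a9 and 2.67 for S100a8 among neutrophil markers. All 5 neutrophil markers read under the filter cut of 7.48 on both wild-type arrays, so their CFLARs Tg readings brought them into the test. Without a filter 4 of them passed, S100a8 being lost (limma adjusted p = 0.0516). With the lowest 50% of genes left out 0 of them were fitted. The wild-type means of S100a8 and Cxcr2, 6.74 and 6.71, lay within the range of background readings given below. Both group means of the leukocyte marker Cd79a, 6.49 in wild-type and 6.74 in CFLARs Tg, lay in that range too, and it was not fitted. The leukocyte marker that lay lower was Cd3e, with a difference of -0.08. The part of these cells in the rise of Cd44 was not tested.

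Prom1, which encodes the membrane protein prominin-1, read 8.96 and 9.01 in wild-type, 9.34 on the XCFX array and 9.70 on the XCFY array. Both CFLARs Tg readings lay above both wild-type readings, with the XCFY array higher, as for Cd44. The difference of 0.54 missed the threshold (SE 0.13, limma adjusted p = 0.0533; 95% interval 0.19 to 0.88, not adjusted). The call was gained in a fit that blocks on sex type (adjusted p = 0.02405), after median centring (0.0491), without CFLARs Tg replicate 1 (difference 0.72, adjusted p = 0.000629) and without CFLARs Tg replicate 2 (difference 0.35, adjusted p = 0.00969).

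**Figure D2:**
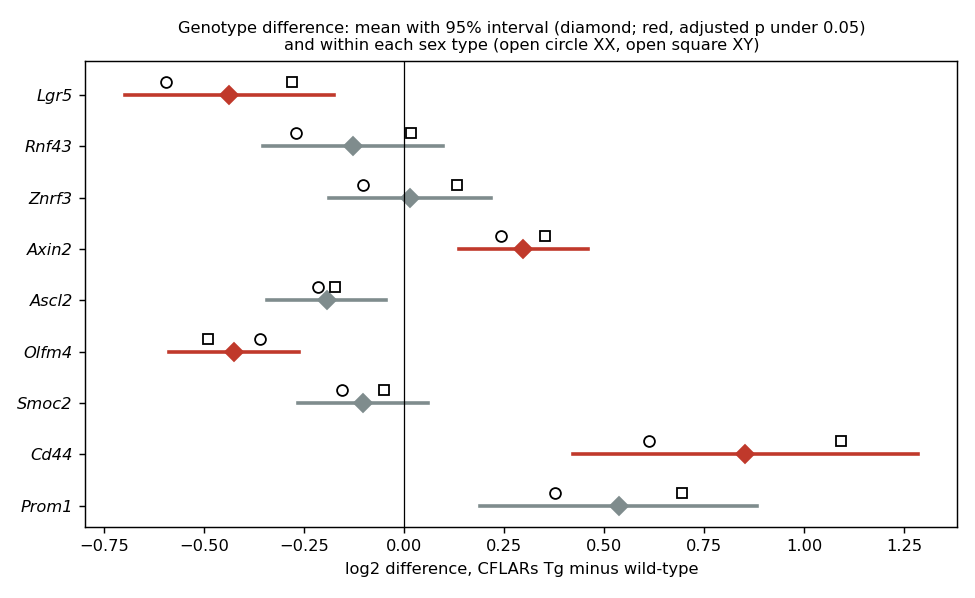
Log2 difference, CFLARs Tg minus wild-type, of each member: mean with its 95% limma interval (diamond and bar; red where the adjusted p is under 0.05) and the difference within the XX type (open circle) and the XY type (open square), which has no error. Lgr5, Olfm4, Ascl2 and Smoc2 lie below 0 and Axin2, Cd44 and Prom1 above 0 in both sex types; Rnf43 and Znrf3 have 1 value on each side.

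Within each sex type 1 array stood against 1, so these differences have no test. The titles XCFX and XCFY do not state the dose of the transgene, so sex type and dose cannot be told apart. Cd44 differed by 0.61 in the XX type and by 1.09 in the XY type, Prom1 by 0.38 and 0.69, and Axin2 by 0.24 and 0.35. These 3 differences were larger in the XY type, whereas Lgr5 differed by -0.59 in the XX type and by -0.28 in the XY type. Olfm4 differed by -0.36 and -0.49, Ascl2 by -0.22 and -0.17 and Smoc2 by -0.16 and -0.05. Of the 9 members 7 thus kept 1 direction in both types, as did 76.8% of all genes tested. The median over all genes tested was -0.02 in the XX type and -0.01 in the XY type.

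With either wild-type array left out, the spread was that of the CFLARs Tg pair alone. Without wild-type replicate 1 or 2, 0 members passed (limma), against 0.301% and 0.287% of all genes. At an unadjusted p under 0.05 there were 5 and 4 members, against 18.3% and 20.8% of all genes. Without CFLARs Tg replicate 1 or 2, 5 and 6 members passed, with 47.0% and 32.4% of all genes. The median wild-type pair difference was 0.05 and the median CFLARs Tg pair difference 0.11 over all genes tested. The fitted genes whose 4 readings, each centred on its own mean, lay nearest to those of Lgr5 were 0610009B22Rik, Tcp11l2 and Rp9, at Euclidean distances of 0.05, 0.05 and 0.06 log2 units, and they differed by -0.48, -0.41 and -0.41 between the genotypes.

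The rest of the Wnt pathway and other stem cell genes were followed in 8 lists of 95 genes, of which 80 were fitted. Of these 80, 4 rose and 8 fell (limma, adjusted p under 0.05), or 15%, a share below the 19.3% of all genes tested. The median difference of the 80 genes was -0.02. Without wild-type replicate 1 or 2 0 of them passed (8 and 11 at an unadjusted limma p under 0.05), and without CFLARs Tg replicate 1 or 2, 27 and 18 passed.

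At the top of the pathway, 0 of 10 fitted genes for Wnt ligands, R-spondins and their secretion passed, and 2 had an unadjusted limma p under 0.05. Rspo3, an R-spondin made by cells below the crypt, read 8.63 and 8.56 in wild-type and 8.82 and 9.07 in CFLARs Tg, a difference of 0.35 (SE 0.10, limma adjusted p = 0.0703) that passed without either CFLARs Tg array. The 4 ligands Wnt3, Wnt6, Rspo2 and Rspo4 were under the filter on low values. Among 14 fitted receptor genes 2 fell and 0 rose: the Frizzled genes Fzd4, from 10.22 ± 0.01 to 9.75 ± 0.04 (SD, n = 2), and Fzd8, from 9.42 ± 0.02 to 8.97 ± 0.03 (limma adjusted p = 0.0194 and 0.0196). Fzd4 is also a receptor of endothelial cells, whose markers fell in 3 of 5 (Kdr, Tek and Emcn; 2 with sex type blocked, without Tek, 1 without a filter, Emcn, and 0 without wild-type replicate 1 or 2), with a summed signal of 7840 to 8107 in wild-type and 6548 to 7357 in CFLARs Tg; their part in this fall was not tested. Lgr4, the receptor closest to Lgr5, differed by 0.06 (SE 0.07, limma adjusted p = 0.577; chosen after its value was seen). Of 7 fitted Wnt inhibitor genes 0 passed and 2 had an unadjusted limma p under 0.05; Sfrp1, which encodes a secreted Wnt-binding protein, differed by -0.27 (SE 0.10, limma adjusted p = 0.112). The Sfrp1 difference was -0.15 without CFLARs Tg replicate 1, and it was -0.39 and passed without CFLARs Tg replicate 2 (adjusted p = 0.00840).

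Inside the cell, 2 of 13 fitted genes of the destruction complex and its regulators fell and 0 rose. Tnks, the tankyrase that marks Axin proteins for removal, fell by 0.39 (SE 0.06, limma adjusted p = 0.0275), and Btrc, the ubiquitin ligase adaptor that recognises phosphorylated beta-catenin, fell by 0.26 (SE 0.06, limma adjusted p = 0.0462). The call of Btrc was lost when sex type was blocked (adjusted p = 0.0640), after median centring and without a filter (0.0584). Of 10 fitted genes for TCF/LEF factors and cofactors 1 rose and 2 fell. Tcf7l2, the main TCF factor of the intestinal epithelium, read 10.76 and 10.70 in wild-type and 11.08 and 11.05 in CFLARs Tg and rose by 0.34 (SE 0.06, limma adjusted p = 0.0296). Tle3, a Groucho corepressor, fell by 0.49 (SE 0.08, limma adjusted p = 0.0291), and Bcl9l, a beta-catenin cofactor, by 0.26 (limma adjusted p = 0.0450, or 0.0668 with sex type as a block and 0.0564 without a filter).

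Among 8 fitted other Wnt targets of the crypt 2 rose and 0 fell; with sex type blocked, Tnfrsf19, a receptor of the TNF receptor family, also passed, with a difference of -0.30. Myc, which encodes a growth-promoting transcription factor, read 10.32 and 10.18 in wild-type and 10.75 and 11.10 in CFLARs Tg, and rose by 0.68 (SE 0.13, limma adjusted p = 0.0357). Ccnd1, which encodes cyclin D1, rose by 0.39 (SE 0.08, limma adjusted p = 0.0392). Like Cd44 and Prom1, both read highest on the XCFY array. Markers of proliferating cells lay higher in 7 of 7 measured genes, of which 3 rose (Top2a, Mcm5 and Birc5; 0 without wild-type replicate 1 or 2), and their summed signal was 14012 to 14136 in wild-type and 16333 to 19442 in CFLARs Tg; their part in these rises was not tested.

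Of 12 fitted other stem cell and crypt base genes 0 rose and 2 fell. Tert, the telomerase catalytic subunit that marks a slowly cycling crypt cell, read 9.62 and 9.57 in wild-type and 8.65 and 8.46 in CFLARs Tg. It fell by 1.04 (SE 0.09, limma adjusted p = 0.0136), a 2.05-fold difference and the largest among the 80 genes, and was not called without wild-type replicate 1 or 2 (adjusted p = 0.121 and 0.104; differences of -1.01 and -1.06). Msi1, which encodes an RNA-binding protein of stem cells, fell by 0.27 (SE 0.06, limma adjusted p = 0.0440, or 0.0646 with sex type as a block and 0.0550 without a filter). Of the partners of the surface proteins, 1 of 6 fitted rose, Has1, which encodes an enzyme that makes hyaluronan, the ligand of Cd44. Has1 read 7.43 on both wild-type arrays and 7.68 and 7.80 in CFLARs Tg, a rise of 0.31 (SE 0.07, limma adjusted p = 0.0405). Both wild-type readings of Has1 lay under the filter cut of 7.48, so its CFLARs Tg readings brought it into the test. The call of Has1 was lost after quantile normalization, and without a filter its limma adjusted p was 0.0495. Efnb3, which encodes an ephrin-B ligand, differed by -0.30 and passed when sex type was blocked.

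**Figure D3:**
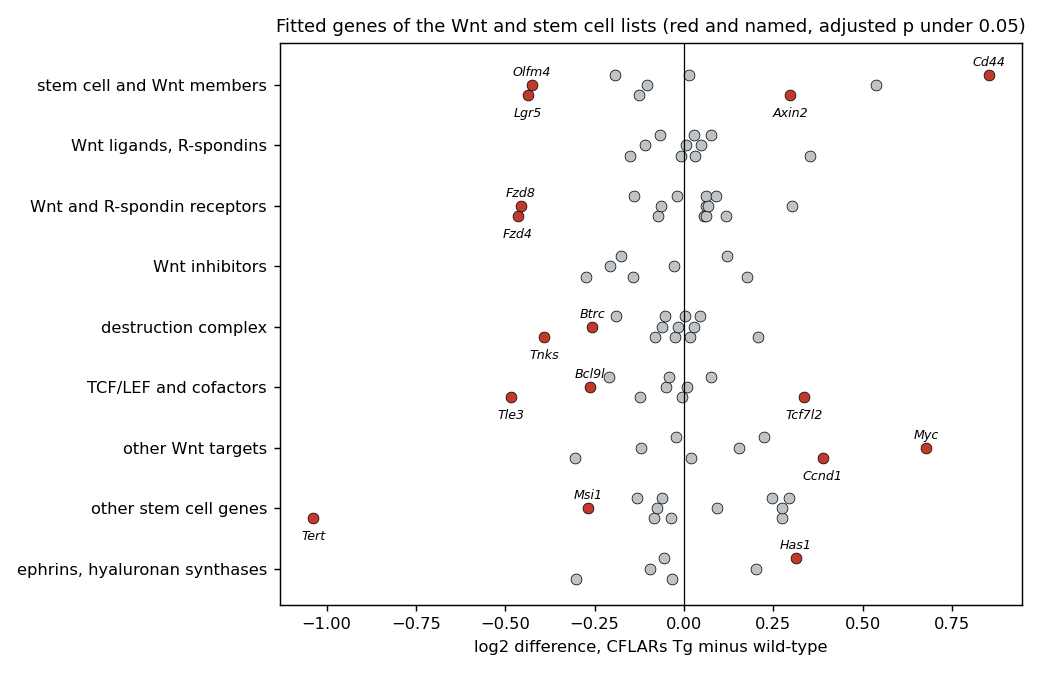
Log2 difference, CFLARs Tg minus wild-type, of each fitted gene of the stem cell and Wnt members and of the 8 other lists; genes with an adjusted p under 0.05 (limma) are red and named, and the vertical offset within a list only separates points. Called genes lie on both sides of 0, from Tert at -1.04 to Cd44 at 0.85.

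The arrays carried the signal of intestinal epithelium, with the 8 epithelial markers summing to 39309 to 40747 in wild-type and 46535 to 47706 in CFLARs Tg. In each list such a sum weighs the brightest probe sets most, here that of Krt8, with a wild-type mean of 13.47. Of these 8 markers 5 lay higher and 3 lower, namely Cdx2 (-0.21), Epcam (-0.08) and Vil1 (-0.08). Among them Krt8 and Krt18 rose, and Krt19 differed by 0.50 and passed only with sex type blocked or without CFLARs Tg replicate 1 or 2. Enterocyte markers lay lower in 8 of 8, with 0 of 7 fitted called (5 at an unadjusted limma p under 0.05) and a summed signal of 89648 to 89897 in wild-type and 52940 to 75370 in CFLARs Tg; Lct differed by -1.49 and Fabp1 by -0.81. Lct and Alpi passed with sex type blocked, Sis without a filter, and 7 and 4 enterocyte markers without CFLARs Tg replicate 1 or 2. Paneth cell markers lay higher in 5 of 5 measured, with 0 of 4 fitted called (3 at an unadjusted limma p under 0.05). Mmp7 differed by 1.62 and Defa24 by 1.35. Defa24 read 8.44 and 10.06 in wild-type and 9.86 and 11.34 in CFLARs Tg, so the groups overlapped. Itln1, which was not fitted, had a wild-type mean of 6.13, within the range of background readings given below. With sex type blocked 4 of the 4 fitted passed (Lyz1, Mmp7, Ang4 and Defa24), after median centring 1 (Ang4), and without CFLARs Tg replicate 1 or 2, 4 and 3. Mesenchyme markers summed to 33496 to 34256 in wild-type and 32561 to 35944 in CFLARs Tg, and 0 of 8 passed (0 also at an unadjusted limma p under 0.05); Pdgfrb differed by 0.14 and Col3a1 by -0.13. Smooth muscle markers lay higher in 6 of 6, with a summed signal of 43244 to 43467 in wild-type and 45223 to 50536 in CFLARs Tg, with 0 called (2 at an unadjusted limma p under 0.05); Des differed by 0.36 and Tagln by 0.25. Exocrine pancreas markers stood apart on the wild-type XY array, with a summed signal of 8004 against 874 to 1840 on the other 3 arrays, and Ctrb1 differed by -2.61 and Cpa1 by -1.15. The calls of the 13 markers called in all lists were lost with either wild-type array left out. The part of these cell types in the differences of the members was not tested. Cflar, by the brightest of its 3 probe sets, read 9.31 ± 0.04 and 9.40 ± 0.13 (SD, n = 2, limma adjusted p = 0.498). This probe set is not known to match the transgene. On the Y chromosome, Eif2s3y, Kdm5d and Uty read 5.13 to 6.12 on the XX-type arrays and 9.08 to 10.35 on the XY-type arrays. Readings of sex-linked genes on arrays of the type that lacks them, 5.13 to 6.78, gave a scale for background, and every reading of a member lay above it.

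**Figure D4:**
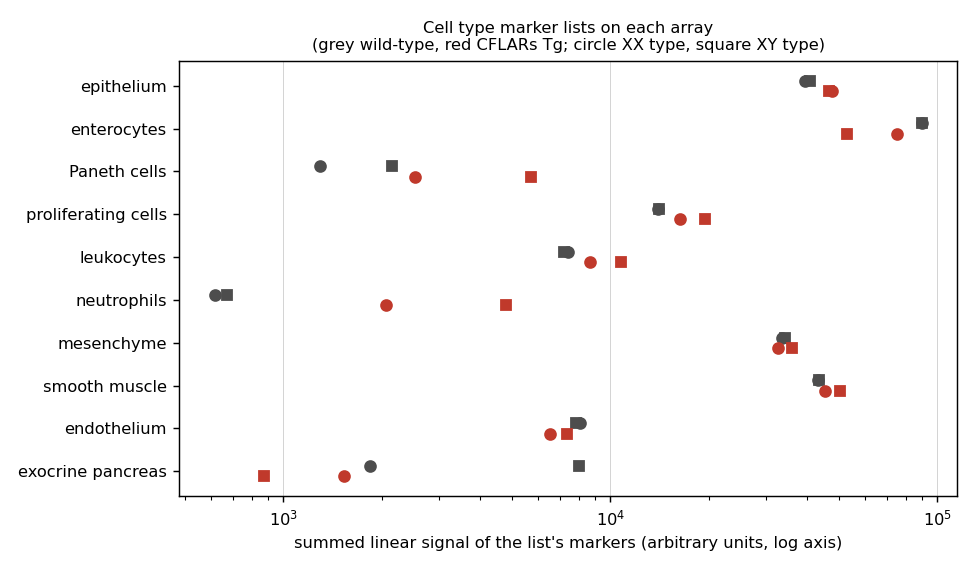
Summed linear signal (arbitrary units, log axis) of each fixed list of cell type markers on each array; the brightest probe sets of a list weigh most in its sum. The CFLARs Tg arrays lie above the wild-type arrays for epithelium, proliferating cells, leukocytes, neutrophils, Paneth cells and smooth muscle and below them for enterocytes and endothelium, and the wild-type XY array alone is high for exocrine pancreas.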

How the data were processed

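Single-colour Affymetrix arrays measured 2 wild-type and 2 CFLARs Tg samples of small intestine. The authors deposited log2 expression values for 28856 probe sets; RNA was labelled with biotin per the labels' protocols, and the sources used here give neither the summarisation nor the normalization. Array medians lay between 8.31 and 8.33, and 0 values were missing. Symbols came from the platform annotation (21789 probe sets with 1 symbol, 1621 with several, 5446 with none), updated through the GRCm38.p6 gene table, which changed 0. The brightest probe set stood for each of 19938 genes, and the 30% with the lowest mean (under 7.48) were left out. Genotypes were compared with limma 3.58.1 in R 4.3.3 (lmFit, eBayes, 2 residual and 2.64 prior degrees of freedom) with Benjamini-Hochberg adjustment over 13956 genes at 0.05. Differences are CFLARs Tg minus wild-type with the moderated SE. The steps were tested on simulated data with noise drawn independently for each gene and array. The simulated differences were larger than those of the members, so this tested the steps and not the calls reported here. Nothing was computed below the probe set level; the number of arrays limits the precision.

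The members and lists were chosen with earlier results of these data known. The text names all members, the called genes of each other list (at most 4, or the largest difference where none passed), the 2 markers of a list with the largest difference, Cflar, the sex-linked genes and the 3 genes nearest to Lgr5. Outside this rule, Lgr4, the unfitted ligands, markers called in a fit, Epcam, Itln1, Cd79a, Cd3e, Tnfrsf19 and Efnb3 were named after their values were seen. Alternatives changed the filter, the scaling, the probe set rule, a block for sex type, the variance prior, the null hypothesis and the arrays used.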

Additional observations from a re-analysis of the deposited data

Results flagged for a closer look

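The differences of Rnf43 and Znrf3 had opposite signs in the XX and XY types, and neither gene passed the test between genotypes. Rnf43 differed by -0.27 in the XX type and by 0.016 in the XY type, and Znrf3 by -0.10 and 0.13. Each value rests on 1 array against 1, and the difference between the sex types was not tested.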

How the results depend on the processing

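The 4 calls among the members, and the 12 in the other lists, kept their direction under all 12 alternatives, in so far as the gene was fitted. This was almost fixed in advance. In each called gene both CFLARs Tg arrays lay on the same side of both wild-type arrays, so leaving out a single array could not turn the sign. The filter, block, variance prior, null hypothesis and probe set rule left these differences unchanged, and only the scaling could move them. When differences had to exceed 0.5 (treat), 0 members (1 at an unadjusted p under 0.05) and 0 genes of the other lists (1 at an unadjusted p under 0.05) passed, with 63 of all genes. With single arrays left out, the members called ranged from 0 to 6, the calls in the other lists from 0 to 27, the calls over all genes from 40 to 6559 (2695 with all arrays) and the members' median from -0.15 to -0.05. Without a filter 3 members passed, Lgr5 being lost; median centring gave 5 with Prom1 added, and sex type as a block gave 4, with Axin2 lost and Prom1 gained. With single arrays left out Znrf3 lay between -0.052 (without CFLARs Tg replicate 2) and 0.083 (without CFLARs Tg replicate 1), and it was also below zero without wild-type replicate 2 (-0.035). The labels carry no replicate number shared between the genotypes, and the fit with sex type as a block, which pairs 1 array of each genotype, called 3112 genes. The cause of these changes was not tested.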
